A study of Mus musculus with 3 samples.

Results

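Leucine-rich repeat containing (Lrrc) genes were examined in the 2-month heart. The members were all gene probes whose array name is Lrrc followed by a digit, with Lrrc10 itself, the deleted gene, left out. They were 87 probes of 56 genes, out of 41174 probes of 28090 gene names on the array. 21 genes had more than 1 member probe and 35 genes had 1. Hearts of C57/BL6 mice labelled Lrrc10-/- (a germline deletion of Lrrc10, backcrossed to C57BL/6) were compared with hearts labelled WT. On each of 3 arrays, RNA pooled from 2 hearts labelled Lrrc10-/- carried Cy5 and RNA pooled from 2 hearts labelled WT carried Cy3, without a dye swap. All mice were 2 months old. The labels call the WT channel a reference and do not say whether the arrays had separate WT pools. The study's methods describe 3 independent biological replicates of RNA pooled from 2 littermate hearts, and do not mention a shared WT pool. If the arrays shared 1 pool, the tests do not hold the spread between WT pools.

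The labels were checked first on the deleted gene. The Lrrc10 probe A_51_P441687 gave processed signals of 14283, 20828 and 17703 in Cy5 and 476, 443 and 352 in Cy3 on arrays 1, 2 and 3. Its signal was therefore higher in the channel labelled Lrrc10-/- on every array, with a log2 ratio of 5.37 ± 0.41 (SD, n = 3), which goes against the labels. Whether this probe lies in the deleted part is not given in the sources used here. Nppa, which encodes atrial natriuretic factor, had log2 ratios of -0.89, -0.61 and -0.82, lower in the channel labelled Lrrc10-/- on every array, and the study's text gives this gene the opposite direction. Every direction below is that of the channel labelled Lrrc10-/- (Cy5) over the channel labelled WT (Cy3). All 6 cardiomyocyte markers examined were well above background in every reading. The log2 ratios of the arrays correlated weakly across probes, at 0.10, -0.04 and -0.18 for the 3 pairs of arrays, and probes are not independent replicates. In Cy5 of array 2 the atrial genes Myl7 and Sln stood apart, with log2 ratios of 3.41 and 3.69 there and -0.21 and 0.08 on array 1 and -1.27 and -1.15 on array 3.

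Leucine-rich repeats are short stretches with leucines at fixed spacing that fold into a curved scaffold and bind other proteins. The Lrrc symbols were given by this repeat and not by descent or function, so the genes range from ion channel subunits and actin regulators to parts of cilia. LRRC10 is known for its place in cardiac muscle, and the Lrrc genes linked to striated muscle include Lrrc39 (myomasp), a component of the sarcomeric M-band, and Lrrc2, a mitochondria-associated protein of heart muscle. The LRRC8 proteins form the volume-regulated anion channel, in which LRRC8A is the obligatory subunit and LRRC8B to LRRC8E are its partners.

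The repeat can be read in some of the array's own probes. A search of each 60-base probe, in any forward frame free of stop codons, looked for the leucine-rich repeat consensus (leucine, 2 residues, leucine, 1 residue, leucine, 2 residues, asparagine or cysteine, 1 residue, leucine, with isoleucine, valine or phenylalanine accepted for each leucine). The pattern was found in 6 of 87 member probes and in 0.772% of the 41174 probes of the array. These 6 probes are shown because they report the repeat that gives the genes their name, and the 33 bases of the match are in capitals. They were copied 5′ to 3′ from the deposited array files.
Lrrc1 A_52_P189984: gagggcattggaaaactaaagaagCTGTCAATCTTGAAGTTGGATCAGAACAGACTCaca
Lrrc39 A_52_P65305: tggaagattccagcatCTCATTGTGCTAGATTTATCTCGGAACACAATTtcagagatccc
Lrrc46 A_51_P216085: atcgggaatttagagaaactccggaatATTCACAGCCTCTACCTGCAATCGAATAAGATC
Lrrc57 A_52_P319073: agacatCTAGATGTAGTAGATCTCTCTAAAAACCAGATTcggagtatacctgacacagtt
Lrrc8c A_51_P503261: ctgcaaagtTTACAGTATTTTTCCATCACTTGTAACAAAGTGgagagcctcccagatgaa
Lrrc8e A_52_P413058: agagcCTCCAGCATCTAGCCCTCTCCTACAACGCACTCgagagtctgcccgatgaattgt
All 6 were well above background in every reading of the arrays, as were 50 of the 81 member probes without the pattern. A match describes the letters of the probe only, and the absence of a match says only that the pattern is not in those 60 bases.

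Most Lrrc genes gave signal in the heart, as did most genes of the array. Each probe has 6 readings, 1 per channel and array, and Agilent's software marks a reading that is well above background. 41 of 56 genes had at least 1 probe marked in all 6 readings, 6 genes had marked readings in part, and 9 genes had none. Over the whole array these counts were 17791, 3435 and 6864 of 28090 gene names. By probe, 56 of 87 were marked in all 6 readings and 14 in none, and over all probes of the array these shares were 62.6% and 24.7%. Detection says nothing of the order of the genes, because signals of different probes cannot be compared.

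Every gene placed with striated muscle (Lrrc2, Lrrc20 and Lrrc39), with the LRRC8 channel (Lrrc8a to Lrrc8e) and with the endoplasmic reticulum and ubiquitin ligase adaptors (Lrrc14, Lrrc29, Lrrc41, Lrrc58 and Lrrc59) was detected in all 6 readings of at least 1 probe. The same held for Lrrc1, a cell polarity protein of the LAP family, for the actin regulators Lrrc16a and Lrrc16b (now Carmil1 and Carmil3), and for Lrrc15 and Lrrc17. The genes with no marked reading were Lrrc7, a scaffold of the postsynaptic density, Lrrc19, Lrrc31, Lrrc34, Lrrc36, Lrrc37a, Lrrc43, Lrrc44 (now Lrriq3) and Lrrc9. Of the BK channel gamma subunits, which shift the voltage dependence of the large-conductance potassium channel, Lrrc38 was detected in all 6 readings. Lrrc26 and Lrrc55 each had 1 marked reading of 6 and the better probe of Lrrc52 had 2. Lrrc4b, a synaptic adhesion protein, had 5, Lrrc6, a dynein arm assembly factor, had 3, and Lrrc18 had 3, all of them in Cy5.

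**Figure D1:**
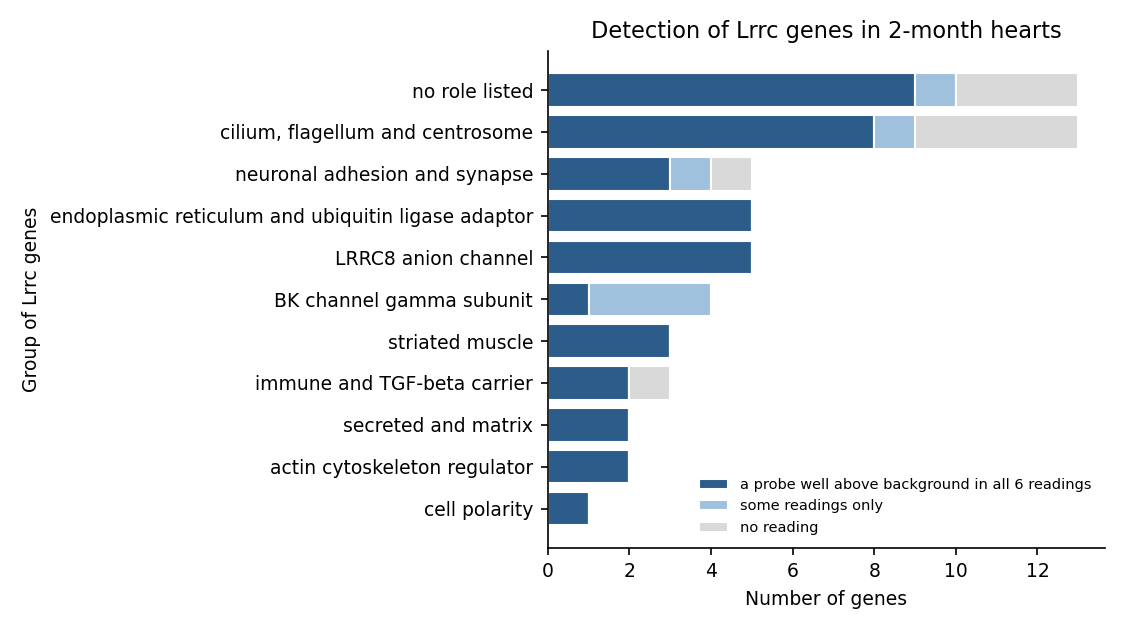
Detection of Lrrc genes by group. Bars give the number of genes in each group (x axis) with a probe well above background in all 6 readings (dark blue), in some readings only (light blue) or in none (grey), and the striated muscle, LRRC8 channel and ubiquitin ligase adaptor groups are dark throughout.

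A probe was tested when the geometric mean of its 6 processed signals was at least 20. 69 of the 87 member probes, of 46 genes, passed this minimum and 18 did not. Limma tested the mean log2 ratio of each such probe, and the adjustment ran over all 29606 of them. No member passed an adjusted p of 0.05. Among all tested probes 0.00676% were called brighter in Cy5 and 0% brighter in Cy3. At an unadjusted p under 0.05, 1 member was brighter in Cy5 (background 1.55%) and 0 were brighter in Cy3 (background 1.52%). The study required a minimum processed signal of 20 and a change of at least 1.2-fold on every chip. It does not state how that minimum was taken over channels and arrays. The probes also had to pass a p under 0.05 from the study's own clustering of the replicates. That p is not in the files used here. With the deposited single-array p under 0.05 on every array in its place, no member was selected in either direction, against 0.405% of all tested probes in Cy5 and 0.507% in Cy3. With limma's unadjusted p over the arrays in its place, 1 member, Lrrc8b, was selected in Cy5 (background 0.922%) and 0 in Cy3 (background 1.11%). With 3 arrays an exact sign-flip test of a single probe cannot give a two-sided p below 0.25.

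The median log2 ratio of the 69 tested probes was 0.01, and that of all tested probes was 0.00. Member ratios ranged from -0.62 to 1.71. The SD between arrays had a median of 0.36 among the members and 0.39 among all tested probes, and the median half-width of a member's 95% interval was 0.59 on the log2 scale. A missed threshold does not show equal levels.

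**Figure D2:**
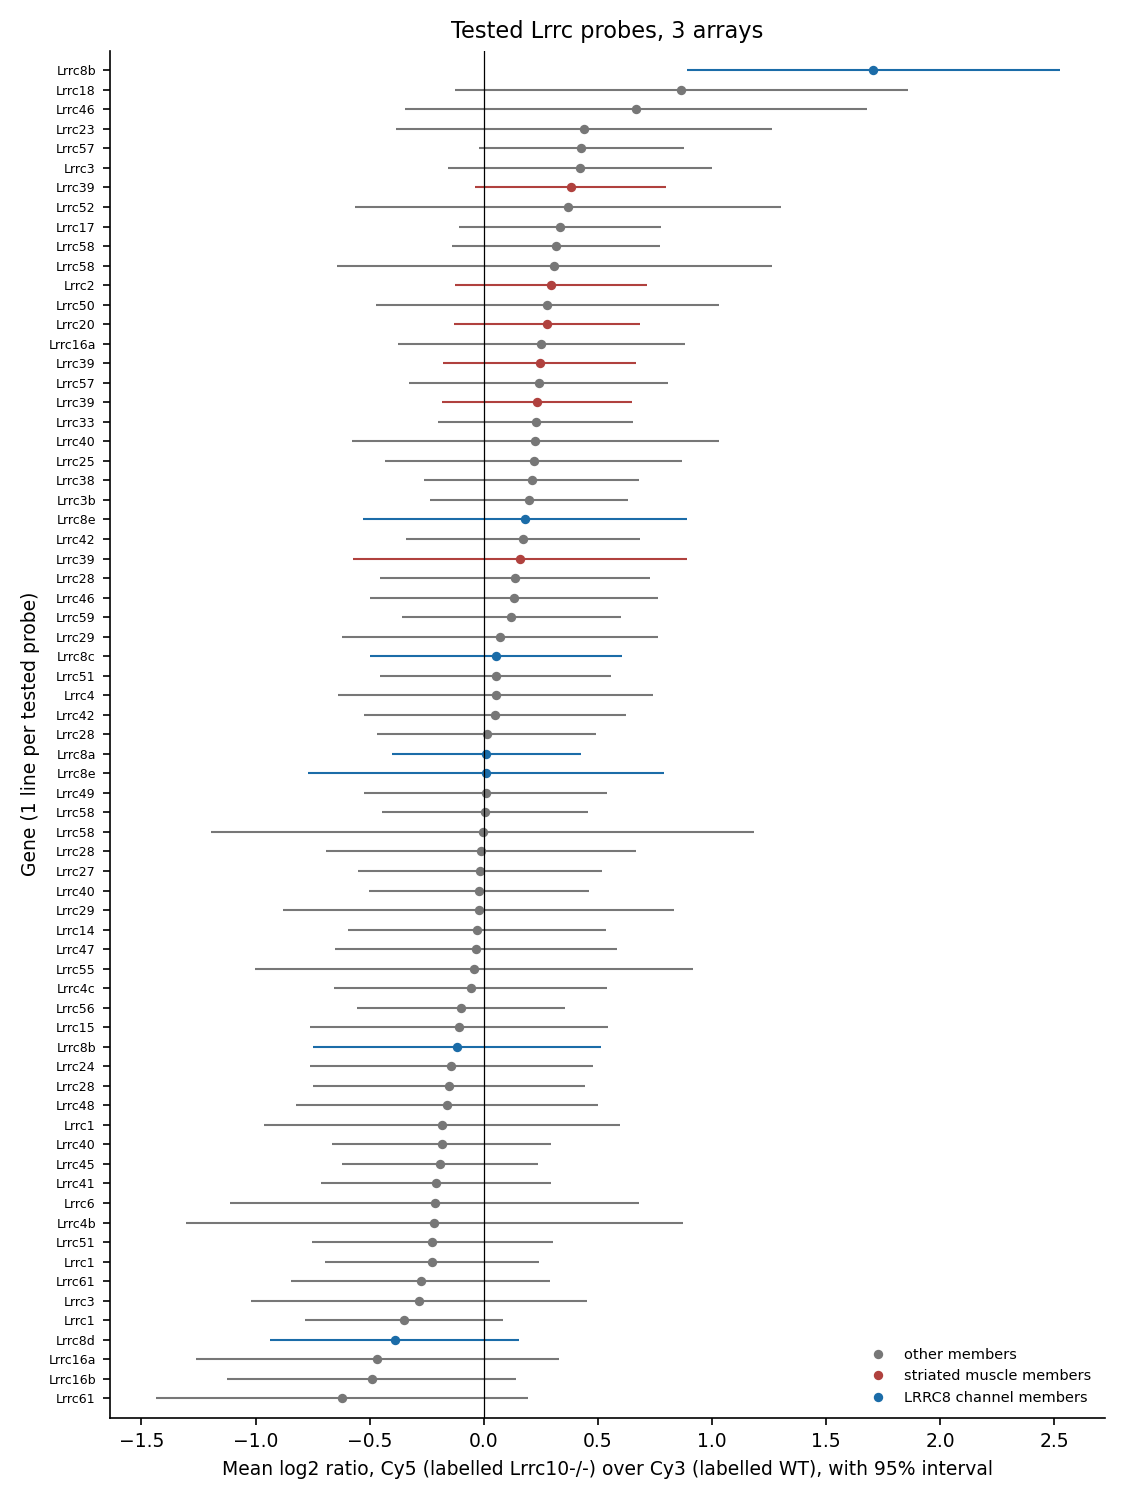
Mean log2 ratio, Cy5 over Cy3 (x axis), of the 69 tested Lrrc probes, ordered by ratio, with the unadjusted 95% interval from limma over 3 arrays as a line. In the deposited scaling the interval of 1 probe, of Lrrc8b, lies above 0, and those of the other 68 cross it.

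Lrrc8b, a partner subunit of the volume-regulated anion channel, gave the largest ratio among the tested members in the deposited scaling. Its probe A_51_P244154 read 37.6, 123 and 86.2 in Cy5 on arrays 1, 2 and 3, and 16.7, 23.2 and 29.5 in Cy3. Every Cy5 reading was higher than every Cy3 reading, a separation seen in 3 tested member probes (with Lrrc18 A_51_P418432 and Lrrc28 A_51_P147445) and in 1.24% of all tested probes. No tested member had the reverse, which 1.64% of all tested probes had. Neither share of all tested probes was limited to well-detected probes. All 3 Cy3 readings of the Lrrc18 probe were not well above background, so its separation rests on an uncertain Cy3 level. The log2 ratios of the Lrrc8b probe were 1.17, 2.40 and 1.55, with a mean of 1.71 ± 0.63 (SD, n = 3) and a 95% interval from 0.89 to 2.52. All 3 Cy5 readings but only the Cy3 reading of array 3 were marked as well above background, so the ratios of arrays 1 and 2 rest on an uncertain Cy3 level. With normexp background correction (offset 50) the mean was 0.24 after loess and 0.22 after median centring, and several members then had larger ratios. The limma p was 0.00136 unadjusted and 1 after adjustment, so the difference did not pass over all probes. The deposited p of array 1 was 0.0626, which kept the probe out of the selection by single-array p.

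The second Lrrc8b probe did not show this difference. A_51_P420841 read 143, 166 and 91.0 in Cy5 and 109, 217 and 116 in Cy3, and all 6 readings were well above background. Its log2 ratios of 0.39, -0.39 and -0.35 had a mean of -0.12 (95% interval -0.75 to 0.51), and in the deposited scaling the intervals of the 2 probes do not overlap. The first 30 bases of each are printed because the 2 probes stand for 1 gene and disagree.
Lrrc8b A_51_P244154: cagaacgcttgcagacctgcttagataaat
Lrrc8b A_51_P420841: agccatctattcagaatctaactgagccca
The array ties the first probe to a RefSeq transcript of Lrrc8b, and the accession of the second was not matched in the reference table. Which transcripts each probe reads was not tested. Without array 3 the first probe's mean was 1.79 with a limma adjusted p of 0.00943, but in that fit on 2 arrays 1.84% of all tested probes passed, against 0.00676% with all arrays.

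The other channel subunits did not pass the test either. Lrrc8a, the obligatory subunit, read 4991, 6197 and 6055 in Cy5 and 4514, 6921 and 5856 in Cy3, a mean log2 ratio of 0.01 with a 95% interval from -0.40 to 0.43. The readings of the channels overlapped. Lrrc8c, whose gene lies next to Lrrc8b on chromosome 5 in the RefSeq table, gave log2 ratios of 0.55, -0.20 and -0.18. Lrrc8d was lower in Cy5 on all arrays, at 384, 458 and 327 against 464, 821 and 338 in Cy3, with a mean log2 ratio of -0.39 ± 0.41 (SD, n = 3) and an interval from -0.93 to 0.16. Array 2 had the lowest ratio, at -0.84, and without it the mean was -0.16. With normexp and loess it was -0.23.

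Lrrc8e had 3 probes. A_52_P413058, whose repeat is printed above, gave 0.29, 0.94 and -0.68 and changed direction between arrays. A_51_P107738 gave -0.30, 0.23 and 0.09 at signals of 21.1 to 30.7. The third, A_52_P655761, lay under the signal minimum.

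**Figure D3:**
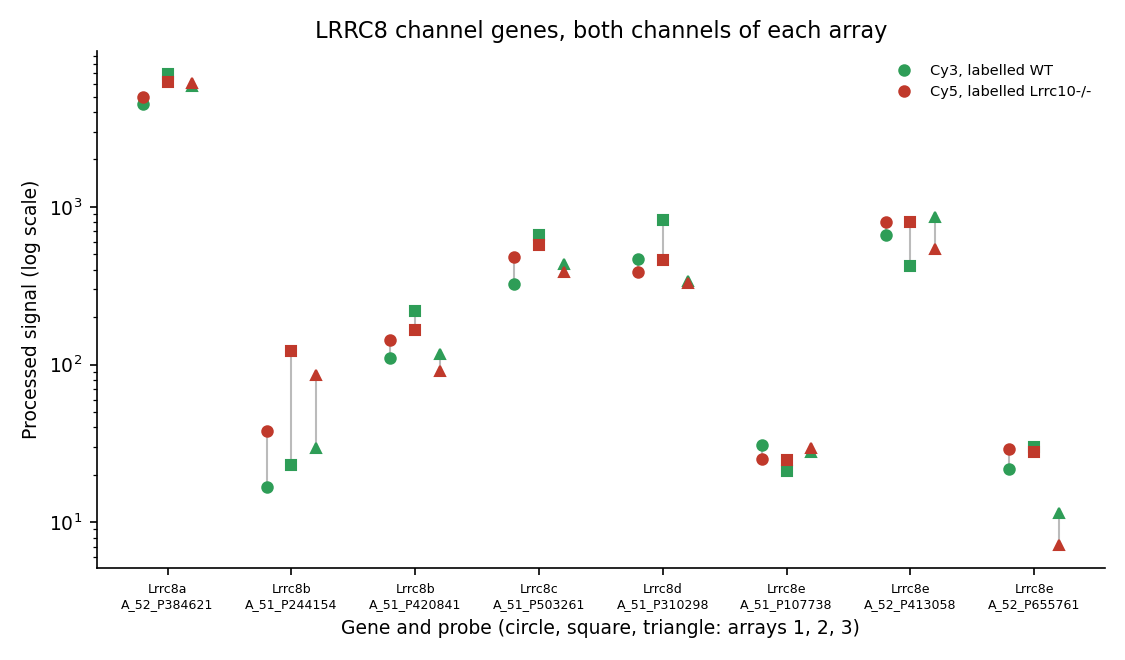
Processed signal (y axis, log scale) of the 8 LRRC8 probes in Cy3 (green, labelled WT) and Cy5 (red, labelled Lrrc10-/-), with circles, squares and triangles for arrays 1, 2 and 3 and a grey line joining the channels of an array. Red lies above green on all arrays at the Lrrc8b probe A_51_P244154 and not at the other Lrrc8b probe. Heights are not comparable between probes.

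The striated muscle members had small ratios, mostly towards Cy5. Of their 6 tested probes, 5 were higher in Cy5 on all 3 arrays (9.99% of all tested probes were), 0 were lower on all 3 (11.0% of all tested probes were), and none was called. Their median log2 ratio was 0.26, beside 0.01 over all tested members and 0.00 over all tested probes. The group holds 3 genes, and 4 of the 6 probes are of Lrrc39, so the probes share their source.

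Lrrc20, a gene expressed in muscle, read 2310, 3924 and 2697 in Cy5 and 1881, 3291 and 2216 in Cy3. Its log2 ratios of 0.30, 0.25 and 0.28 differed little, and the SD of 0.02 was the smallest among the 69 tested members. The mean of 0.28 had a limma 95% interval from -0.13 to 0.69, which is wider than this SD alone would give because limma draws each probe's variance towards that of probes with like signal.

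Lrrc2 read 36037, 50037 and 31365 in Cy5 and 27184, 44640 and 25209 in Cy3. Its log2 ratios were 0.41, 0.16 and 0.32, with a mean of 0.30 ± 0.12 (SD, n = 3). Within each array Cy5 was above Cy3, although the 2 sets of readings overlap across arrays.

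Lrrc39 was read by 4 probes, all with a positive mean. A_52_P419373 read 2371, 3372 and 2185 in Cy5 and 1679, 2640 and 1786 in Cy3, which gave log2 ratios of 0.50, 0.35 and 0.29 and an interval from -0.04 to 0.80. A_51_P244810 gave 0.33, 0.25 and 0.12, and A_52_P65305, the probe over a repeat, gave 0.02, 0.32 and 0.39. The dim probe A_52_P333063 gave 0.12, -0.30 and 0.66. Under normexp and loess the means of A_51_P244810 and A_52_P65305 were -0.03 and 0.01 and that of Lrrc2 was 0.10, while those of A_52_P419373 and Lrrc20 were 0.41 and 0.40.

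Cardiomyocyte and skeletal muscle markers were read beside these genes. Of the 6 cardiomyocyte markers 0 were higher in Cy5 on all arrays and 3 were lower. The 3 lower ones were Tnni3, Myl3 and Mybpc3, and the study lists Tnni3 and Mybpc3 among transcripts upregulated in adult Lrrc10-/- hearts. The summed signal of the 6 cardiomyocyte markers was 851778, 1015910 and 788639 in Cy5 and 981548, 1253280 and 756681 in Cy3, log2 ratios of -0.20, -0.30 and 0.06. 5 of these 6 had saturated readings. Of the 6 skeletal muscle markers, 5 were detected in all readings, 0 were higher in Cy5 on all arrays and 1, Pvalb, was lower, at -0.62, -0.60 and -1.32. Their summed signal had log2 ratios of 0.12, -0.68 and 0.39, but Myh4, saturated in 3 readings, made up 84.9% to 92.3% of it. The part of other cell types in the ratios of the muscle members was not tested. In RNA from whole hearts, fewer cells of a type and less RNA per cell cannot be told apart.

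Over all tested members, 15 of 69 probes (21.7%) were higher in Cy5 on all 3 arrays, against a background of 9.99%, and 7 (10.1%) were lower on all 3, against 11.0%. Both shares depend on the scaling. With normexp and loess the counts were 15 and 13 (background 16.7% and 15.3%), and with normexp and median centring, under which the median over the array was 0.16, they were 33 and 10 (background 41.2% and 11.6%). Of the 22 probes with a single direction, 10 had a mean more than 1.5 times smaller under normexp and loess and 1 changed sign. Among the 56 members well above background in every reading, 13 were higher on all arrays and 6 were lower. The corresponding shares of all such probes were 9.82% and 11.3%.

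Beside the muscle genes, Lrrc57 was higher on all arrays with both of its probes. A_51_P122226 read 685, 1035 and 984 in Cy5 and 556, 756 and 681 in Cy3. Its log2 ratios were 0.30, 0.45 and 0.53, the mean was 0.43 ± 0.12 (SD, n = 3), and the limma p of 0.0596 became 1 after adjustment. A_52_P319073, over a repeat of the same gene, gave 0.05, 0.03 and 0.64, and its mean of 0.24 was 0.04 without array 3 and 0.02 under normexp and loess. Lrrc57 was the only one of the 15 genes with more than 1 tested probe in which all of these had a single direction on all arrays.

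Lrrc17, a secreted protein studied in bone, read 1830, 2402 and 754 in Cy5 and 1320, 1799 and 694 in Cy3. Its mean log2 ratio was 0.34 (95% interval -0.11 to 0.78). Lrrc58 had 2 bright probes, of which A_52_P17228 gave log2 ratios of 0.18, 0.18 and 0.59 and A_51_P466502 gave 0.26, 0.10 and -0.34. The mean of A_52_P17228 was 0.32, but 0.18 without array 3 and 0.04 under normexp and loess. Of the 2 Lrrc3 probes, A_52_P185014 gave 0.29, 0.05 and 0.92 and A_51_P354609 gave 0.21, -0.43 and -0.63, so the probes of this gene disagreed.

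Lrrc38, Lrrc3b and Lrrc28 (A_51_P147445) had smaller means of 0.21, 0.20 and 0.14, also positive on every array. Without array 3 those of Lrrc38 and Lrrc3b were 0.12 and 0.08, and under normexp and loess that of Lrrc28 was 0.01. The Lrrc18 probe A_51_P418432 had log2 ratios of 1.90, 0.19 and 0.51. All 3 of its Cy3 readings were not well above background, so the ratio is only a bound, at least 1.08-fold higher in Cy5. That bound is the probe's own difference after normexp (offset 50), loess and Aquantile normalization, is open to dye bias and holds for that scaling alone. With normexp and median centring the mean log2 ratio was 0.03.

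In the other direction, Lrrc16b (Carmil3), which binds actin capping protein, had the largest mean among the well-detected probes in the deposited scaling. It read 92.3, 59.0 and 41.1 in Cy5 and 144, 84.0 and 51.3 in Cy3. Its log2 ratios of -0.64, -0.51 and -0.32 gave a mean of -0.49 with an interval from -1.12 to 0.14, and under normexp and loess the mean was -0.14. Its relative Lrrc16a (Carmil1) had no single direction, with 0.91, -0.03 and -0.12 at the detected probe.

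Lrrc1 was lower on all arrays at 2 of its 3 probes. A_51_P194306 read 1553, 2203 and 1405 in Cy5 and 1839, 3251 and 1664 in Cy3, a mean log2 ratio of -0.35 with an interval from -0.78 to 0.08. A_52_P189977 averaged -0.23. The probe over a repeat, A_52_P189984, gave -0.08, -1.05 and 0.59. Under normexp and median centring the means of A_51_P194306 and A_52_P189977 were 0.08 and 0.07, below the median of 0.16 that all tested probes had under that scaling.

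Lrrc45, a centrosome linker protein, and Lrrc51 (A_52_P319137) averaged -0.19 and -0.22. The Lrrc51 probe gave -0.11, -0.10 and -0.47 on arrays 1, 2 and 3. Under normexp and median centring Lrrc51 was at -0.10 and Lrrc45 at 0.16, as was the median of all tested probes. The dim Lrrc61 probe A_52_P6566 averaged -0.62. It was well above background in 1 Cy3 reading and in no Cy5 reading, which bounds it at 1.03-fold higher or more in Cy3. The other Lrrc61 probe gave -0.25, -0.68 and 0.10.

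**Figure D4:**
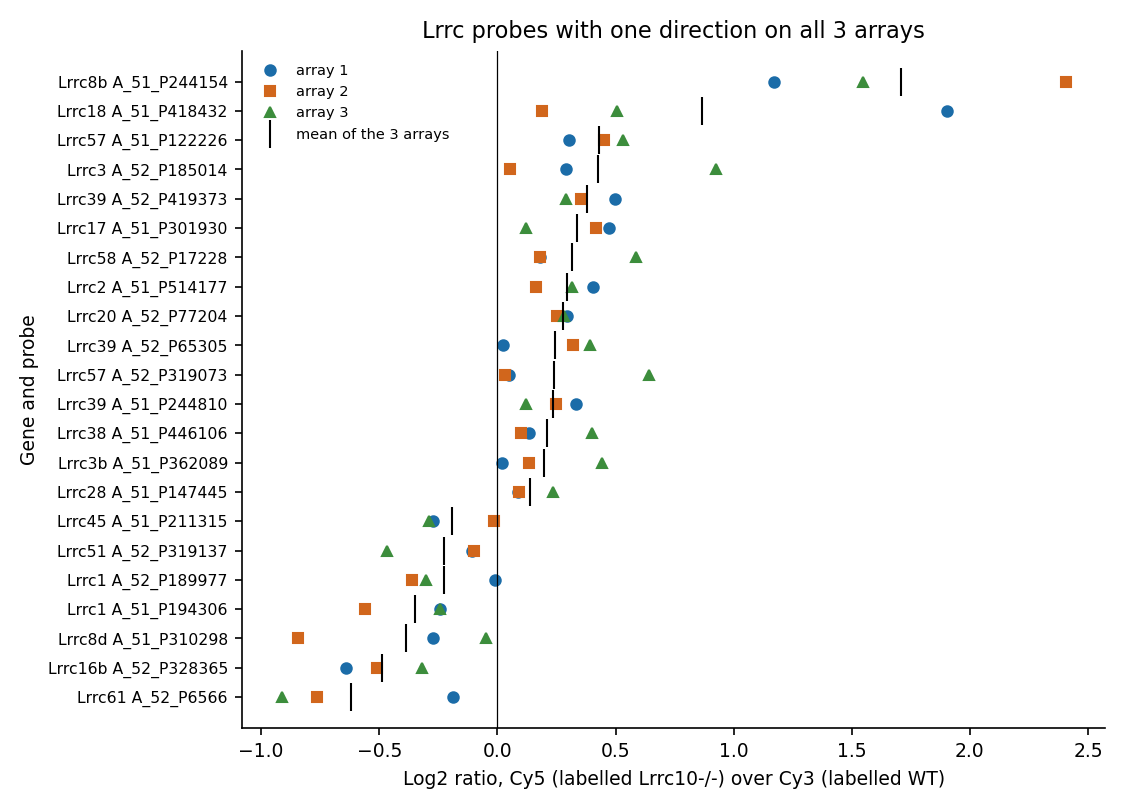
Log2 ratio, Cy5 over Cy3 (x axis), of the 22 tested Lrrc probes with a single direction on all 3 arrays, with a symbol for each array and a bar at the mean. 15 probes lie right of 0 and 7 left of it in this scaling, and under normexp and loess the mean of Lrrc39 A_51_P244810 changes sign and that of Lrrc8b falls to 0.24.

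The well-detected members without a single direction included genes of several compartments. Lrrc33 (now Nrros), which anchors latent TGF-beta in macrophages and microglia, read 3989, 6038 and 3583 in Cy5 and 4004, 4936 and 2721 in Cy3, with log2 ratios of -0.01, 0.29 and 0.40. The first array was at equal signal and the other two were higher in Cy5. Lrrc25, a gene of myeloid cells, gave 0.78, 0.11 and -0.24.

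Lrrc59, a ribosome-associated protein of the endoplasmic reticulum, gave 0.42, -0.24 and 0.19 with an interval from -0.36 to 0.60. Lrrc41, an adaptor of a ubiquitin ligase, gave -0.02, -0.67 and 0.06. Lrrc47 gave 0.53, -0.75 and 0.12. In each of these 3 genes array 2 was the lowest, and the SD between arrays was larger than the mean. The marker lists of endothelium and fibroblasts were also lowest on array 2, with summed log2 ratios of 0.01, -0.75 and -0.17 for endothelium and 0.42, -0.67 and -0.25 for fibroblasts. Skeletal muscle and cardiomyocyte lists were lowest there too, at 0.12, -0.68 and 0.39 and at -0.20, -0.30 and 0.06. So were the lists of lung and ciliated cells, at 0.38, -0.37 and -0.17, and of neurons, at 0.13, -0.09 and 0.18. The leukocyte and fat lists were not, with -0.02, 0.04 and -0.22 and with 0.06, 0.21 and -0.09. Nor were red blood cells, at 0.32, 0.29 and -0.35, or the atrium, at -0.89, -0.52 and -0.82. The part of these cell types in the ratios of the 3 genes was not tested.

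Among the neuronal adhesion genes, 3 were detected in all 6 readings. Lrrc4, Lrrc4c and Lrrc24 had means of 0.05, -0.06 and -0.14, and Lrrc4c had an SD of 0.10. Of the neuron markers examined, Snap25 had no reading well above background, and Tubb3 and Syp had all 6.

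The remaining cilium and flagellum genes were also without a direction. Lrrc49 averaged 0.01, Lrrc56 -0.10 and Lrrc48 -0.16, with intervals that reach at least 0.36 above and 0.53 below 0. Lrrc27, Lrrc40 and Lrrc42, for which no role was listed, had probe means between -0.18 and 0.23.

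Several genes had probes that disagreed. Of the 15 genes with more than 1 tested probe, 8 had probe means on both sides of 0. The 2 Lrrc8b means lay 1.83 apart on the log2 scale in the deposited scaling, with 2 Cy3 readings of A_51_P244154 not well above background, and were 0.24 and -0.08 under normexp and loess. Those of Lrrc16a and Lrrc3 lay 0.72 and 0.71 apart, and each gene had a probe that was not detected in every reading. At Lrrc29 the 2 means lay 0.09 apart, but the probes had opposite signs on arrays 1 and 3. A_52_P621732 gave -0.33, 0.18 and 0.37, and A_52_P78333 gave 0.43, 0.44 and -0.93.

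A further set of members differed between arrays more than between channels. These probes were picked after their values were seen. 5 of the 69 tested probes (7.25%) had an SD between arrays over 1 on the log2 scale, against 5.97% of all tested probes. They were Lrrc23, Lrrc46 (A_52_P375546), Lrrc4b and 2 dim probes of Lrrc58.

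Lrrc46 (A_52_P375546), named in connection with the sperm flagellum, read 1774, 1717 and 1538 in Cy5. In Cy3 it read 832, 506 and 2782. The Cy5 readings span 1.15-fold and the Cy3 readings 5.49-fold, and the log2 ratios were 1.09, 1.76 and -0.85. The other Lrrc46 probe gave -0.16, 0.73 and -0.18.

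Lrrc23, a radial spoke protein of motile cilia, read 2321, 2046 and 1259 in Cy5 and 1576, 762 and 1991 in Cy3. Its log2 ratios were 0.56, 1.43 and -0.66. Lrrc50 (now Dnaaf1), an assembly factor of ciliary dynein, gave 0.57, 0.74 and -0.47, and Lrrc8e (A_52_P413058) gave 0.29, 0.94 and -0.68. All 4 were higher in Cy5 on arrays 1 and 2 and lower on array 3. This order of signs was held by 8 of the 56 members well above background in every reading (14.3%) and by 12.6% of all such probes. Lrrc48 (now Drc3) and Lrrc56, also of the cilium and flagellum group, did not share it.

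Lrrc4b ran the other way, with 93.7, 103 and 48.8 in Cy5 and 122, 286 and 21.3 in Cy3. Its log2 ratios were -0.38, -1.47 and 1.19, and the Cy3 reading of array 3 was not well above background, so the ratio of that array is uncertain. The 2 dim Lrrc58 probes gave -1.38, -0.11 and 1.48 (A_52_P482715) and -0.49, -0.02 and 1.44 (A_51_P188381), also with a Cy3 reading on array 3 that was not well above background, while the bright Lrrc58 probes stayed between -0.34 and 0.59.

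Markers of ciliated and lung cells were examined beside these genes. Foxj1, the master regulator of motile cilia, and Sftpc, of alveolar cells, had no reading well above background. Scgb1a1, of airway club cells, was above it in all 6 readings with log2 ratios of 0.45, -0.28 and -0.13, an order of signs that Lrrc23, Lrrc46, Lrrc50 and Lrrc8e do not have. The summed signal of these 3 markers was 176, 153 and 121 in Cy5 and 136, 198 and 136 in Cy3.

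The spread between arrays was larger in Cy3 than in Cy5. After each array's median was taken off, the SD of the log2 signal had a median of 0.38 in Cy3 and 0.23 in Cy5 over the tested members, and 0.38 and 0.22 over all tested probes.

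**Figure D5:**
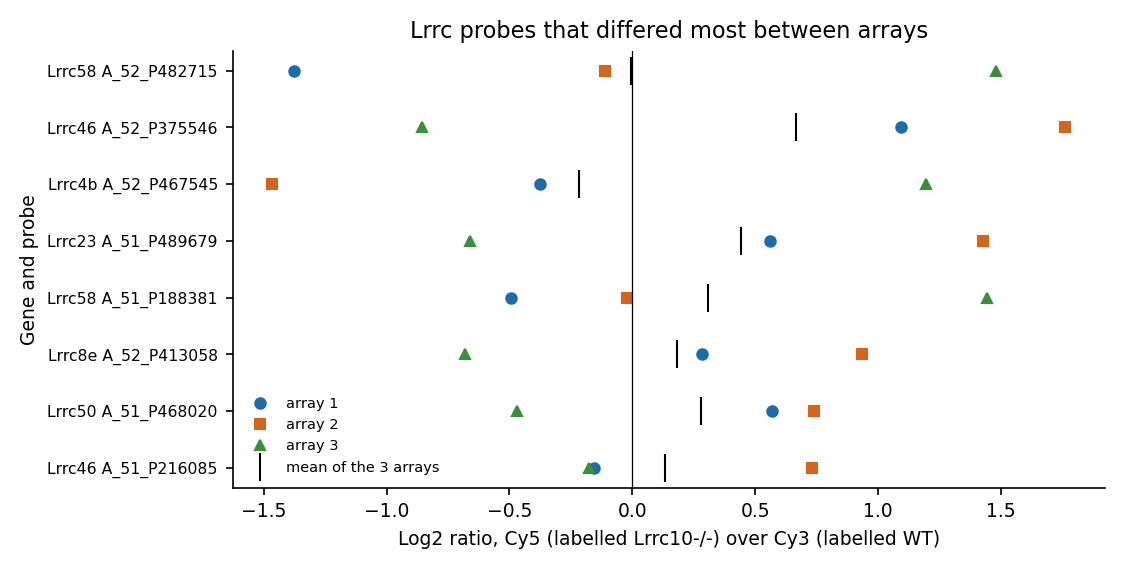
Log2 ratio, Cy5 over Cy3 (x axis), of the 5 Lrrc probes with an SD between arrays over 1, and of Lrrc8e A_52_P413058, Lrrc50 A_51_P468020 and the second Lrrc46 probe, with a symbol for each array and a bar at the mean. Array 3 lies left of 0 for Lrrc46, Lrrc23, Lrrc8e and Lrrc50 and right of 0 for Lrrc4b and Lrrc58.

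The array also carries leucine-rich repeat proteins with other names, and 98 of these genes on 151 probes were read for comparison. 118 of the probes were tested, 0 were called by limma, and at an unadjusted p under 0.05 there were 4 brighter in Cy5 and 1 brighter in Cy3 (background 1.55% and 1.52%). On all arrays 15 (12.7%) were higher in Cy5 and 5 (4.24%) were lower, beside 9.99% and 11.0% of all tested probes, and the median log2 ratio was 0.01. The selection by single-array p took 1 probe in each direction. Tmod3, a tropomodulin that caps the pointed end of actin filaments, was selected as brighter in Cy3 at A_52_P188782, with log2 ratios of -1.24, -0.73 and -1.37, while A_52_P450780 was higher in Cy5 at 0.16, 0.22 and 0.65 and A_51_P429276 gave 0.60, 0.64 and -0.33. Lgi1, a secreted neuronal protein, was selected as brighter in Cy5 at A_52_P609695 with 0.71, 0.73 and 0.71. Its other probes did not share this, with 0.46, -0.19 and 0.71 at A_52_P298394 and -0.41, -0.38 and 0.82 at A_52_P354617. Neither gene passed adjustment with limma. The small leucine-rich proteoglycans, which bind collagen, had 16 tested probes, and none had a single direction on all arrays. Of all tested probes 9.99% were higher and 11.0% lower on all arrays, so few would be looked for among 16.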

How the data were processed

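Hearts of 2-month mice were profiled on 3 two-colour Agilent whole mouse genome arrays of 1 slide. The authors deposited Feature Extraction output: mean and background intensity columns, processed signal intensities (local background subtracted, dyes normalized by linear and lowess steps), log10 ratios of Cy5 over Cy3, set to 0 where neither channel was above background, a p-value for each spot, and detection flags. A second deposited table holds the same log10 ratios. Of 43379 gene spots per array, 28942 to 30269 were well above background in Cy3 and 30512 to 30810 in Cy5. Outlier spots were left out, and each member probe was a single spot.

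Log2 ratios were computed and tested with limma 3.58.1 in R 4.3.3 (intercept, eBayes with intensity trend, Benjamini-Hochberg adjustment over 29606 probes), which was tested on simulated data. The arrays are labelled replicates, and their number limits the precision of every value. Bounds, computed from the mean intensities after normexp, loess and Aquantile normalization, set the brighter channel's mean against the higher of the lowest well-detected signal and the probe's own. Accessions matched RefSeq (GRCm38.p6) for 74 of 87 member probes, and 6 genes have another symbol there. 7 probes under other names that now carry an Lrrc symbol were not members.

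Values were named for the striated muscle and LRRC8 members, for members called or selected, and for up to 10 well-detected probes per direction with one sign on all arrays. Members and lists were chosen with earlier results of these data known. Alternatives covered background correction, scaling, signal filters, the variance model, the methods' t-test and each array left out. Role groups were compiled from general knowledge and 13 genes have no role listed.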

Additional observations from a re-analysis of the deposited data

How the results depend on the processing

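No paired analysis was possible because each array's ratio already pairs its channels and the arrays form 1 group. No member was called under the limma alternatives or the methods' t-test, except without array 3, where 2 were called (Lrrc8b and Lrrc46 A_52_P375546, with adjusted p of 0.00943 and 0.000479), beside 545 of all 29606 probes and 3 of the other leucine-rich repeat proteins. That fit rests on 2 arrays, and the cause was not tested. Leaving out each array gave 0 to 2 members called and 0 to 4 selected as brighter in Cy5 (Lrrc57 and Lrrc8b without array 1, Lrrc17, Lrrc23, Lrrc46 and Lrrc50 without array 3), which is 2.90%, 0% and 5.80% of the tested members without arrays 1, 2 and 3, beside 2.24%, 1.93% and 3.95% of all tested probes. With fewer arrays to satisfy, 20 to 25 probes were higher in Cy5 on all that remained and 11 to 19 were lower, beside 21.9% to 25.8% and 22.2% to 26.2% of all tested probes. Taking limma's unadjusted p in place of the deposited one selected 1 member, Lrrc8b. The probes lower on all arrays were 13 with normexp and loess, and those higher on all arrays were 33 with normexp and median centring, against 7 and 15. The count of probes detected was 74 with the weaker flag for signal positive and significant against background.

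Of 276 values of 28 probes under the alternatives (the named probes and every tested member with a single direction), 14 changed sign, none of them called. With normexp and loess the mean log2 ratio was -0.034 at Lrrc39 A_51_P244810 and -0.080 at Lrrc8a. With median centring, under which the median of all tested probes was itself 0.16, it was 0.077 and 0.069 at Lrrc1 A_51_P194306 and A_52_P189977, 0.16 at Lrrc45 and -0.048 at Lrrc8e A_51_P107738. Leaving out each array moved Lrrc8a between -0.056 and 0.097, Lrrc8c between -0.19 and 0.18, Lrrc8b A_51_P420841 between -0.37 and 0.016, Lrrc8e A_51_P107738 between -0.10 and 0.16, Lrrc8e A_52_P413058 between -0.20 and 0.61, and Lrrc39 A_52_P333063 between -0.093 and 0.39. Lrrc8d lay between -0.56 and -0.16 when arrays were left out and at -0.0056 with median centring. Lrrc8b A_51_P244154 lay between 1.36 and 1.98 when arrays were left out, but at 0.24 with normexp and loess and 0.22 with median centring. Of the 22 probes with a single direction, 10 had a mean over 1.5 times smaller with normexp and loess, and with median centring 8 were smaller and 8 larger by that much. Probes with a channel below background on every array have only a bound, and 18 member probes were too dim to test.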
